A study of Mus musculus with 3 samples.

Results

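The nuclear oxidative phosphorylation genes were the gene rows whose symbol began with Ndufa, Ndufb, Ndufc, Ndufs, Ndufv, Uqcr, Cox4, Cox5, Cox6a1, Cox6b1, Cox6c, Cox7, Cox8 or Atp5. This name rule used no measured value and took 88 of 32285 gene rows, all of which matched the GENCODE vM21 annotation of GRCm38. They were 36 subunits and 8 assembly factors of complex I, the Ndufb1-ps row, 8 subunits of complex III, 12 subunits and 6 tissue isoforms of complex IV, and 17 subunits of complex V. Complex II, cytochrome c and the mitochondrially encoded subunits fell outside the rule and were kept as separate lists.

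Spleen cells of mice aged 12 to 14 weeks, depleted of T cells with CD3 microbeads, were measured in 3 droplet libraries of 2 conditions each, with cells of 3 mice pooled per condition. The control library held C57BL/6 mice, namely males labelled as sham and females with no treatment named. The labels give this library a pump for 2 weeks from 10 weeks of age. The Ang II library held C57BL/6 mice given angiotensin II by minipump for 2 weeks from 10 weeks of age, with placebo or 2-HOBA, a scavenger of isolevuglandins. The B6.SLE123 library held mice with the Sle1, Sle2 and Sle3 lupus susceptibility loci on the C57BL/6 background, given 2-HOBA or no drug over 6 weeks from 7 weeks of age, and the study describes them as female. Hashtag antibodies C0301 to C0306 marked 6 populations in each library, and no label ties a hashtag to a condition. Each group was therefore 1 library, no test between groups was possible, sex and library could not be told apart, and the 6 hashtag populations are given as the spread within a library.

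Oxidative phosphorylation couples electron transfer along the inner mitochondrial membrane to ATP synthesis. Complex I takes electrons from NADH, complex III passes them from ubiquinol to cytochrome c, complex IV reduces oxygen, and complex V uses the proton gradient to make ATP. Most subunits are encoded in the nucleus and must be matched by a small set encoded in mitochondrial DNA, and B cells raise the pathway when they are activated and divide.

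After limits of over 200 and under 3500 genes and under 15% mitochondrial UMIs, and removal of barcodes with several hashtags, 15700 control, 14023 Ang II and 16708 B6.SLE123 cells were kept. Cells were gated by at least 3 of 8 fixed markers (4 for plasma cells), and each class is called by its markers with "-like" added. Cells that met the gates of several main classes were left out, except that plasma cells could also meet the B cell gate. Germinal centre, cycling and marginal zone cells were gated within the B cell-like cells. The germinal centre gate came first and the cycling gate next, so the germinal centre class could hold cells that also met the other gates. B cell-like cells, the main class, numbered 13185, 11365 and 12776, with medians of 1769, 2738 and 1912 UMIs per cell. Each class held at least 7 of its own 8 markers. Between 415 and 496 barcodes were shared by each pair of libraries. Levels are UMIs per 1000000 UMIs of the class (CPM), and since each UMI marks 1 transcript end, CPM was not divided by transcript length. Intervals are exact 95% intervals that cover counting error only. A member was called higher or lower when its log2 ratio passed 0.32 in that direction and it had at least 100 UMIs over both groups, which 82 of the 88 members had in B cell-like cells. In sums over cells, a change of the mix of cells within a class and a change within each cell cannot be told apart.

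In control B cell-like cells the 88 members together made up 2.08% of all UMIs, or 20764 CPM, and ranged from 20376 to 21171 CPM over the 6 hashtag populations. The 10 most abundant held 33.5% of the members' UMIs. Atp5e, the epsilon subunit of the F1 head of ATP synthase, stood first at 1183 CPM in control, 981 in Ang II and 1058 in B6.SLE123 B cell-like cells. It was followed by Cox8a at 872 CPM, Uqcrh at 857 CPM and Cox4i1 at 846 CPM in the control library. Cox8a and Cox4i1 belong to cytochrome c oxidase, the complex IV enzyme, and Uqcrh is a hinge protein of complex III. Atp5g2 (600 CPM), Cox6c (545 CPM), Atp5l (536 CPM), Atp5g3 (522 CPM), Cox7c (503 CPM) and Atp5h (481 CPM) completed the 10. Atp5g2 and Atp5g3 encode the same mature c subunit of the proton-driven ring of ATP synthase, as does Atp5g1, which stood lower at 195 CPM.

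Of a fixed set of members called core or catalytic here, Cox4i1 alone was among the 10. By role, Cox4i1 and Cox5a are counted among the accessory subunits of complex IV. Ndufs1, which carries iron-sulfur clusters of complex I, stood at 36.8 CPM and Ndufv1, the NADH-binding subunit, at 54.7 CPM in the control library. Uqcrc1, which belongs to the matrix-side core proteins of complex III and is counted by role among the accessory subunits here, stood at 112 CPM and the Rieske iron-sulfur protein Uqcrfs1 at 157 CPM. The F1 subunits Atp5a1 and Atp5b, which form the catalytic hexamer, stood at 259.5 and 283 CPM. The 8 assembly factors of complex I summed to 248.6 CPM against 5919 CPM for the 36 subunits of that complex, 2105 CPM for complex III, 5448 CPM for complex IV and 6762 CPM for complex V.

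The 6 tissue isoforms were near or at 0 in these cells. Cox7b2, Cox8b, Cox8c and Ndufa4l2 had no UMI in any kept cell of any library, and 0 UMIs in control B cell-like cells allow a level of up to 0.109 CPM. Cox7a1, the heart and muscle form, had 19, 20 and 22 UMIs in control, Ang II and B6.SLE123 B cell-like cells, at 0.689, 0.565 and 0.719 CPM. Cox4i2, the lung form of Cox4, had 0, 0 and 2 UMIs in the same cells.

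The summed level of the 88 members ranged widely between cell classes of 1 library. In the B6.SLE123 library, where most classes were best filled, erythroid-like cells stood at 34216 CPM (41 cells), germinal centre B cell-like cells at 31488 CPM (510 cells), cycling B cell-like cells at 26668 CPM (180 cells), monocyte-like cells at 26596 CPM (524 cells) and NK cell-like cells at 25305 CPM (611 cells). B cell-like cells that met none of the germinal centre, cycling or marginal zone gates, here called other B cell-like cells, stood at 20136 CPM (11301 cells) and marginal zone B cell-like cells at 19964 CPM (785 cells). Plasma cell-like cells stood at 15468 CPM (319 cells) and neutrophil-like cells at 13038 CPM (678 cells). In the germinal centre B cell-like cells the 6 hashtag populations ranged from 30716 to 32202 CPM, and in the other B cell-like cells from 19374 to 20799.9 CPM, without overlap. Marginal zone B cell-like cells ranged from 18843 to 21767 CPM and overlapped the other B cell-like cells. The log2 ratio of the marginal zone to the other B cell-like level was -0.01, and it turned to 0.09 without immunoglobulin, mitochondrial and ribosomal protein genes in the totals.

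**Figure D1:**
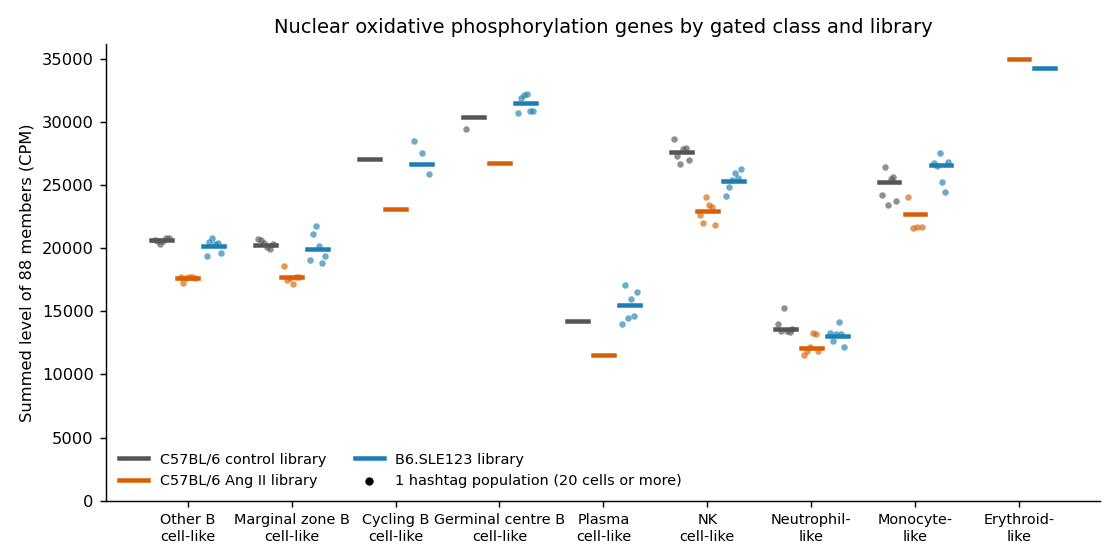
Summed CPM of the 88 members (vertical axis, from 0) by gated class (horizontal axis) and library (colours); lines are the pooled level of the class, points are hashtag populations with at least 20 cells. Germinal centre B cell-like cells sit above the other B cell-like cells in each library, and the Ang II lines sit below the control lines in the 8 classes drawn for both.

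Germinal centre B cell-like cells carried higher levels of members from all complexes. In the B6.SLE123 library 66 of 82 members were higher than in the other B cell-like cells, beside 34.4% of 9459 genes tested, and 2 were lower, beside 33.8%. The median log2 ratio of the members was 0.63 and that of all genes 0.02. The control library (53 germinal centre B cell-like cells) gave 61 members higher, beside 31.1% of all genes, and 3 lower, beside 41.6%. The Ang II library (70 cells) gave 59 higher, beside 31.0%, and 2 lower, beside 38.8%. By role in the B6.SLE123 library, 24 of 29 accessory and 5 of 7 core subunits of complex I were higher, as were 7 of 8 subunits of complex III, 10 of 12 of complex IV, 4 of 5 F1 subunits and 11 of 12 Fo and stalk subunits of complex V. Of the 8 assembly factors 4 were higher. Germinal centre B cell-like cells held a median of 5112 UMIs against 1797 in the other B cell-like cells of that library, and 20.4% of them were at the gate of 3 markers. With each cell given the same weight the log2 ratio of the summed level was 0.63 instead of 0.65, and at a gate of 4 markers it was 0.66. The ratio was smaller without immunoglobulin, mitochondrial and ribosomal protein genes in the totals, at 42350 against 30232 CPM.

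The ratios of members of ATP synthase were spread widely. Atp5g3 stood at 1327 CPM in germinal centre and 579.5 CPM in other B cell-like cells in B6.SLE123, a log2 ratio of 1.20 (1.144 to 1.247), beside 1.02 in the Ang II and 0.98 in the control library. Atp5a1 stood at 617 against 272 CPM in the B6.SLE123 library and at 536 against 267 CPM in the Ang II library. Atp5b read 718 against 333 CPM, with a log2 ratio of 1.11, beside 0.98 and 0.89 in the Ang II and control libraries. The other ring isoforms had smaller ratios, at 0.60 for Atp5g2 and 0.43 for Atp5g1 in the B6.SLE123 library. In complex IV, Cox5a, which binds next to Cox4i1, stood at 591 against 346 CPM (log2 ratio 0.77), Cox4i1 had a log2 ratio of 0.61, and Cox6a1 stood at 687 against 316 CPM (log2 ratio 1.12). The Ndufb1-ps row, annotated in vM21 as a bidirectional promoter lncRNA that overlaps 1 other gene, had the highest ratio of the 82 members at 1.45 (1.36 to 1.53), and 1.43 and 1.39 in the control and Ang II libraries. Cox6a1 and Atp5g1 were named here after their values were seen. Cox6a1 had log2 ratios of 0.81 and 0.68 in the control and Ang II libraries. Atp5g1 had one of 0.17 in the control library, with an interval from -0.19 to 0.51.

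The 2 lower members were Ndufaf4, an assembly factor of complex I, and Ndufa6, an accessory subunit. Ndufaf4 stood at 29.7 against 43.2 CPM in the B6.SLE123 library, a log2 ratio of -0.54 (-0.87 to -0.23), and Ndufa6 at 255 against 329 CPM, a log2 ratio of -0.36. In the Ang II library the interval of the Ndufaf4 ratio ran from -0.47 to 0.88, on 20 UMIs. In the control library Ndufaf4 had a log2 ratio of -1.18 on 6 UMIs, and Ndufa6 one of -0.17 with an interval from -0.49 to 0.12. Uqcrh was the most abundant member of complex III. In the B6.SLE123 library it did not differ beyond its counting interval, at 844 and 845 CPM (log2 ratio interval -0.06 to 0.06). The control library gave an interval from -0.24 to 0.11. In the Ang II library the whole interval was positive (0.17 to 0.46), though the Uqcrh ratio of 0.318 stayed short of the threshold. Its level there was 846 CPM in germinal centre and 678.5 CPM in other B cell-like cells.

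The promoters of Atp5g3 and Atp5b are shown because these genes were 2 of the 3 members of ATP synthase with the highest germinal centre ratios. The 150 bases before each start are given 5′ to 3′ on the gene strand, from RefSeq on GRCm38.p6, at chr2:73911327-73911476 (minus strand) for Atp5g3 and chr10:128083157-128083306 (plus strand) for Atp5b. Capitals mark matches, on either strand, to CCAAT or to GGGCGG, the GC box bound by SP1 family factors.
Atp5g3: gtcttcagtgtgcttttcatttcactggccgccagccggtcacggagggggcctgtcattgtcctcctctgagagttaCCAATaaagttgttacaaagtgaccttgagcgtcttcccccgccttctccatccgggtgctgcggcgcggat
Atp5b: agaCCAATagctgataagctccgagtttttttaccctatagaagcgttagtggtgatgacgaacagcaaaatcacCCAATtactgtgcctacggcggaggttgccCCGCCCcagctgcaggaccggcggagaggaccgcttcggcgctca
The CCAAT letters began 72 bases before the start of Atp5g3 and 147 and 75 bases before that of Atp5b, which also held the GC box on the other strand. The RefSeq start of Atp5b lies inside the vM21 gene, so the last of its printed bases lie within the annotated gene. In windows of 250 bases before to 50 after the start, CCAAT occurred in 43.7% of 71 members with a window and in 41.1% of 27025 genes, and GGGCGG in 43.7% and 38.2%. Letters known for nuclear respiratory genes were searched on both strands as well. The ETS core CCGGAAG occurred in 23.9% of members and 9.93% of genes, the NRF1 core GCATGCGC in 15.5% and 3.05%, and the YY1 letters AANATGGC in 25.4% and 6.96%. These shares describe letters in the windows, and binding was not measured.

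**Figure D2:**
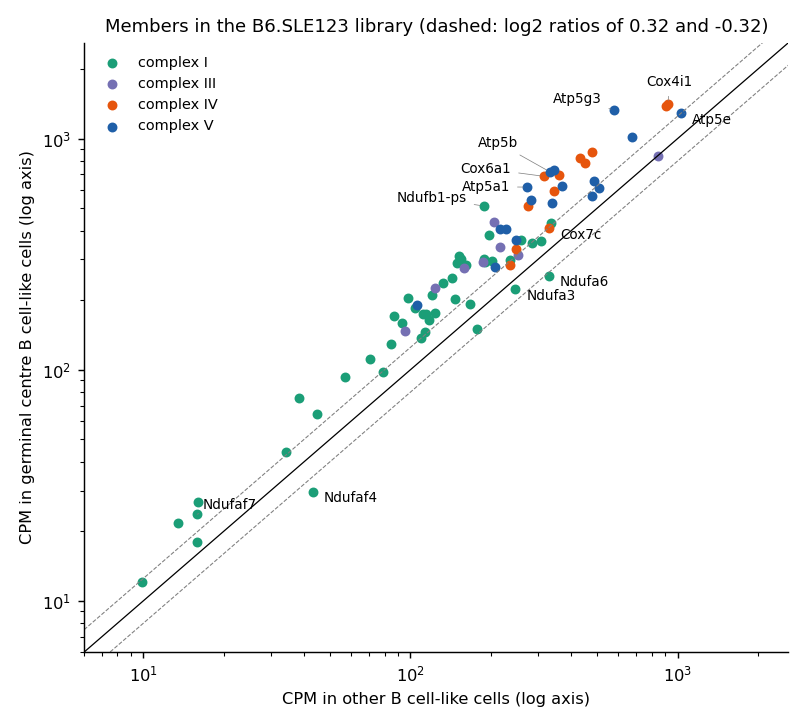
CPM of the 82 members tested in germinal centre B cell-like cells (vertical, log axis) against other B cell-like cells (horizontal, log axis) of the B6.SLE123 library; each point is a member, coloured by complex, with the line of equality and dashed lines at log2 ratios of 0.32 and -0.32. Of the points, 66 lie above the upper dashed line and 2, Ndufaf4 and Ndufa6, below the lower one.

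The gene lists outside the members are set beside all genes tested in germinal centre against other B cell-like cells in B6.SLE123. Of those genes 34.4% were higher and 33.8% lower. None of the mitochondrially encoded subunits was higher in the germinal centre B cell-like cells. Their 13 genes summed to 14454 CPM in germinal centre and 16093 CPM in other B cell-like cells in B6.SLE123, with 0 higher and 2 lower. The mitochondrial ribosome list had 62 of 78 genes higher and 1 lower, the tricarboxylic acid cycle list 11 of 15 higher and 0 lower, and the glycolysis list 10 of 15 tested higher and 3 lower, with a log2 ratio of summed levels of 1.38. The cytosolic ribosome list had 42 of 83 genes lower and 3 higher. Among the regulators of nuclear respiratory genes 7 of 14 were higher and 5 lower, and of the complex II, cytochrome c and assembly list 13 of 27 were higher and 4 lower.

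Other classes are described by their counts and by the member that led each. The leader had the highest value of its lowest ratio over the libraries with at least 20 cells of the class. That ratio was taken to all B cell-like cells, which for B cell subsets include the class itself. The levels printed against each leader are those of the other B cell-like cells. In the B6.SLE123 library, cycling B cell-like cells had 53 of 82 members higher, beside 28.5% of all genes, and 2 lower, beside 33.3%. Uqcr10, a small subunit of complex III, led there at 394 against 206 CPM. Erythroid-like cells had 67 members higher, beside 33.9%, and 4 lower, beside 47.6%. Uqcr11, another small subunit of complex III, led that class, at 635 CPM against 159 CPM for the other B cell-like cells in B6.SLE123 and 704 against 150.5 CPM in the Ang II library. Monocyte-like cells had 53 members higher, beside 32.1%, and 6 lower, beside 38.9%. Ndufaf7, a methyltransferase that acts on a complex I subunit, led there, at 69.3, 53.3 and 52.1 CPM in control, Ang II and B6.SLE123 monocyte-like cells against 15.9, 16.5 and 15.9 CPM in the other B cell-like cells. NK cell-like cells had 37 members higher, a share of 45.1% beside 42.1% of all genes, and 5 lower, beside 27.8%. Atp5h, a peripheral stalk subunit of ATP synthase, led there, at 971, 725 and 870.5 CPM against 485, 374 and 485 CPM. Without immunoglobulin, mitochondrial and ribosomal protein genes in the totals, the log2 ratio of the summed level moved from 0.33 to 0.05 in NK cell-like and from 0.40 to 0.10 in monocyte-like cells.

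Neutrophil-like cells of the B6.SLE123 library had 62 of 82 members lower, a share of 75.6% beside 71.9% of all genes, and 1 higher, beside 16.3%. The higher member was Ndufb7, an accessory subunit of complex I, at 294 against 189 CPM. The assembly factors of complex I summed to 80.0 CPM against 238 CPM in the other B cell-like cells, a log2 ratio of -1.57, beside -0.44 for complex IV. Ndufaf4 had 2 UMIs in 678 cells, a log2 ratio of -5.49 with an interval from -8.54 to -3.64.

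The level in plasma cell-like cells depended on the scaling. Immunoglobulin genes took 46.5% of their UMIs in the B6.SLE123 library and 1.95% in the other B cell-like cells. On all UMIs, 49 of 82 members were lower, beside 77.8% of all genes, and 3 were higher, beside 10.9%. With immunoglobulin genes left out of both totals, 53 members were higher, beside 28.5% of 9144 genes, and 5 lower, beside 41.3%. Ndufa1, an accessory subunit of complex I encoded on the X chromosome, was higher on either scale, with log2 ratios of 1.35 and 2.22. It stood at 472, 363 and 387 CPM in control, Ang II and B6.SLE123 plasma cell-like cells (22, 38 and 319 cells) against 191, 166 and 152 CPM in the other B cell-like cells. Ndufs5, another accessory subunit of complex I, had a log2 ratio of 0.65 on all UMIs and 1.52 without immunoglobulin genes in the B6.SLE123 library.

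Leaders of further classes were as follows, and those of the dendritic, basophil-like and red pulp macrophage-like classes rested on few cells. Ndufc2, an accessory subunit of complex I, led red pulp macrophage-like cells at 319, 448 and 422 CPM in control, Ang II and B6.SLE123 (26, 41 and 149 cells) against 154, 115 and 154 CPM. Atp5md, a small subunit of ATP synthase, led conventional dendritic cell-like cells at 429, 430 and 429 CPM against 281, 244 and 216 CPM. Uqcr11 led plasmacytoid dendritic cell-like cells, at 371 and 329 CPM in control and B6.SLE123 against 196 and 159 CPM. Ndufa6 led basophil-like cells, at 666 and 462 CPM against 319 and 329 CPM in those libraries. Ndufa10, a further accessory subunit, led the T cell-like cells of the Ang II library at 97.9 against 57.1 CPM. Ndufaf4 led marginal zone B cell-like cells, at 52.7, 49.8 and 54.6 CPM in control, Ang II and B6.SLE123 against 41.9, 37.1 and 43.2 CPM.

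The Ang II library was compared with the control library to describe the genes in mice given angiotensin II, with both conditions of each library pooled. The summed level in B cell-like cells was 17779 CPM in the Ang II and 20764 CPM in the control library, a log2 ratio of -0.22. The 6 Ang II hashtag populations ranged from 17354 to 17988 CPM with a median of 17807 CPM, and all were below the control range. Of 82 members tested, 27 were lower, beside 6.35% of 10523 genes, and 2 were higher, beside 12.4%. The median log2 ratio was -0.28 for the members and 0.06 for all genes tested. All 6 Ang II hashtag values were below all 6 control values for 51 members, beside 5.09% of all genes, and above them for 4, beside 8.32%. In the other B cell-like cells alone 28 members were lower, beside 5.88%, and 2 higher, beside 13.4%. With trimmed-mean scaling (TMM) 44 members were lower, beside 9.50% of all genes, and 1 higher, beside 8.81%.

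Accessory subunits of complex I were well represented among the lower members. Of the 29, 15 were lower and 25 lay below the control range in all 6 hashtag populations. Ndufs6 read 60.4, 64.9 and 71.7 CPM as the lowest, median and highest hashtag population of the Ang II library, against 82.1, 91.3 and 99.1 CPM in the control library, a log2 ratio of -0.47 (-0.55 to -0.38). Ndufb7 read 144, 156 and 159.6 CPM against 187, 209 and 215 CPM (log2 ratio -0.43). The groups did not overlap for either gene, nor for Ndufc2 (log2 ratio -0.42) and Ndufs5 (log2 ratio -0.41), further accessory subunits, or the assembly factor Ndufaf8 (log2 ratio -0.46). In complex III, 3 of 8 subunits were lower, and Uqcrh had a log2 ratio of -0.31. In complex IV, 5 of 12 subunits were lower and 10 lay below the control range, with Cox4i1 reading 637, 667 and 689.5 CPM against 819.9, 846 and 862 CPM. In complex V, 2 of 12 Fo and stalk subunits were lower, Atp5h reading 359, 375 and 381 CPM against 466, 482 and 494 CPM and Atp5l at a log2 ratio of -0.35.

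The members of the fixed core or catalytic set differed among themselves. Cox4i1, an accessory subunit by role, was lower, at a log2 ratio of -0.34. Of the 7 core subunits of complex I, 1 was lower (Ndufs7, log2 ratio -0.34, named after its value was seen), and the median log2 ratio of the 7 was -0.07. Ndufs1 had a log2 ratio of -0.02 and Ndufv1 one of 0.13. Uqcrc1 stood at 117 against 112 CPM. Uqcrc2, its partner among the core proteins, was named because its ratio was among the 5 highest. It had a log2 ratio of 0.13 with all 6 hashtag values above the control range. None of the 5 F1 subunits passed the threshold. Atp5b read 305, 323 and 328 CPM against 268, 280.4 and 299 CPM, above the control range, while Atp5a1 had a log2 ratio of 0.04 with overlapping hashtag values. Uqcrfs1 and Cox5a had log2 ratios of -0.16 and -0.23, without overlap. The assembly factor Ndufaf5 had a log2 ratio of 0.14 with an interval from -0.09 to 0.36.

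Members of different transcript length had different ratios. The members had a median annotated transcript length of 601 bases, against 1277 bases for all genes tested. The 40 members under 600 bases had a median log2 ratio of -0.31, the 33 from 600 to under 1000 bases one of -0.16 the 6 from 1000 to under 1500 bases one of -0.01 and the 3 of 1500 bases or more one of -0.12. All genes in these 4 ranges had medians of 0.03, 0.04, 0.06 and 0.07. B cell-like cells of the Ang II library were also deeper, and their 8 neutrophil markers summed to 202 CPM (185 to 215 over hashtag populations) against 45.1 CPM (36.9 to 51.8) in control, with 0 markers at 0 in either library. The part of length and of neutrophil RNA in the result was not tested. In cells with at least 1000 and under 2000 UMIs (1430 Ang II and 7381 control cells) the log2 ratio of the summed level was -0.26.

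Atp5k and Ndufb1-ps were the 2 higher members. Atp5k, a short subunit of the Fo part of ATP synthase, read 204, 215 and 223 CPM as the lowest, median and highest hashtag population of the Ang II library, against 151, 165 and 173 CPM in the control library, a log2 ratio of 0.40 (0.34 to 0.45). The Ndufb1-ps row read 348, 361 and 391 CPM against 255, 279.6 and 306 CPM, a log2 ratio of 0.38 (0.34 to 0.42). Neither overlapped the control range.

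**Figure D3:**
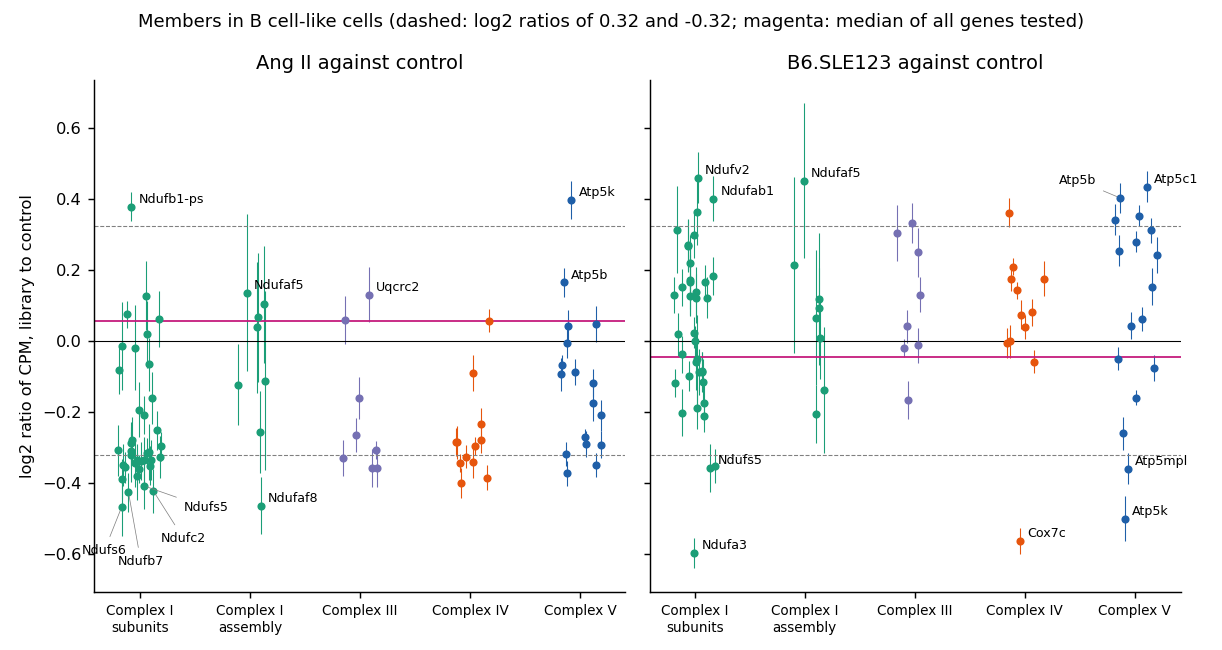
Log2 ratio of CPM to control (vertical axis) of each member tested in B cell-like cells, for the Ang II library (left) and the B6.SLE123 library (right), in columns by complex, with Ndufb1-ps placed among complex I subunits; bars are exact 95% counting intervals, dashed lines mark log2 ratios of 0.32 and -0.32 and the magenta line the median of all genes tested. On the left 27 points lie below the lower dashed line and 2 above the upper one, and on the right 6 lie below and 10 above.

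Other classes of the Ang II library also stood below control. The median log2 ratio of the members tested was -0.22 in marginal zone B cell-like, -0.21 in germinal centre B cell-like, -0.26 in NK cell-like, -0.12 in neutrophil-like and -0.17 in monocyte-like cells, and the medians of all genes tested there ran from -0.07 to 0.08. The summed level was 22931 against 27571 CPM in NK cell-like cells, whose hashtag ranges (21836 to 24018 and 26616 to 28633 CPM) did not overlap. In neutrophil-like cells it was 12114 against 13621 CPM, and the ranges (11509.5 to 13291 and 13390.1 to 15252 CPM) did not overlap either. In monocyte-like cells it was 22694 against 25214 CPM, and the ranges overlapped.

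The B6.SLE123 library was compared with the control library to describe the genes in lupus-prone mice. The summed level in B cell-like cells was 21441 CPM against 20764 CPM, a log2 ratio of 0.05, and the hashtag ranges overlapped (20112 to 22482 CPM in B6.SLE123, with a median of 21783 CPM). The sign of this small difference depended on the cells counted. Germinal centre B cell-like cells were 3.99% of B cell-like cells in the B6.SLE123 library, against 0.402% in the control library, and held 9.79% of the B cell-like UMIs, against 1.18%. In the other B cell-like cells the summed level was 20136 CPM in B6.SLE123 and 20618 CPM in control, a log2 ratio of -0.03. The study's cell limits can also be read as UMIs instead of genes, and the ratio over all B cell-like cells was then -0.05.

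Of 82 members, 10 were higher in all B cell-like cells, beside 16.6% of 10519 genes, and 6 lower, beside 19.3%. In the other B cell-like cells 2 were higher, beside 11.8%, and 8 lower, beside 20.3%. Under TMM 15 were higher, beside 19.0% of all genes, and 3 lower, beside 15.7%. With limits read as UMIs 3 were higher, beside 10.9%, and 9 lower, beside 17.2%. Without cycling and germinal centre cells 3 were higher, beside 11.0%, and 7 lower, beside 18.9%. In cells with at least 1000 and under 2000 UMIs 2 were higher, beside 9.93%, and 11 lower, beside 15.5%. All 6 hashtag values lay above the control range for 19 members, beside 10.1% of all genes, and below it for 12, beside 11.2%. Without cycling and germinal centre cells they lay above it for 13, beside 6.22%, and below it for 20, beside 10.6%. Markers of other classes moved with this library. In B cell-like cells the 8 neutrophil markers summed to 121.6 CPM (99.0 to 146 over hashtag populations) against 45.1 CPM (36.9 to 51.8) in control and the 8 plasma cell markers to 404 CPM (338 to 500) against 223 CPM (174 to 281), none of them at 0, and their part in the result was not tested. The median log2 ratio of the members was 0.08 in all B cell-like and 0.00 in the other B cell-like cells, and that of all genes -0.05 and -0.08.

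Several members of the fixed core or catalytic set, in which Cox4i1 and Cox5a are accessory subunits by role, were among the members above the control range. Ndufv2, Ndufaf5, Atp5c1, Atp5b and Ndufab1 had the 5 highest ratios, and their values are given for that rank. Ndufv2, an iron-sulfur subunit of the NADH-oxidizing part of complex I, read 115, 133 and 144 CPM as the lowest, median and highest hashtag population of the B6.SLE123 library, against 86.8, 90.7 and 109.6 CPM in the control library, a log2 ratio of 0.46 (0.39 to 0.53). The F1 subunit Atp5c1, which forms the rotating central stalk, read 323, 365 and 401 CPM against 254, 269.5 and 278 CPM (log2 ratio 0.43), and Atp5b read 341, 374 and 399.8 CPM against 268, 280.4 and 299 CPM (log2 ratio 0.40). None of these ranges overlapped. Ndufab1, the mitochondrial acyl carrier protein, had a log2 ratio of 0.40, Cox5a one of 0.36, Uqcrfs1 one of 0.33, Atp5a1 one of 0.25, Uqcrc1 one of 0.25 and Cox4i1 one of 0.21, each with all 6 hashtag values above the control range. Ndufaf5, an assembly factor, had a ratio of 0.45 on a level of 14.3 against 10.5 CPM, and its hashtag values overlapped. Ndufs1 (log2 ratio -0.05) and Ndufv1 (0.17) overlapped too.

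In the other B cell-like cells the ratios were 0.37 for Ndufv2 and 0.38 for Atp5c1, the 2 members still higher there, and 0.24 for Atp5b, 0.24 for Ndufab1, 0.27 for Cox5a, 0.27 for Uqcrfs1 and 0.08 for Atp5a1. Of the most abundant members, Atp5e had a log2 ratio of -0.16, Uqcrh of -0.02, Cox6c of -0.06, Atp5l of -0.05, Atp5h of 0.06, Cox8a of 0.14, Atp5g2 of 0.28 and Atp5g3 of 0.35 in all B cell-like cells. By length, the 40 members under 600 bases had a median of 0.00, the 33 from 600 to under 1000 bases one of 0.18 the 6 from 1000 to under 1500 bases one of 0.32 and the 3 of 1500 bases or more one of 0.01. All genes in these ranges had medians of 0.03, 0.01, 0.00 and -0.13, and the part of length was not tested.

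The lowest members were small subunits of complexes I, IV and V. Ndufa3, an accessory subunit of complex I, read 229, 242 and 257 CPM as the lowest, median and highest hashtag population of the B6.SLE123 library, against 352, 366 and 394 CPM in the control library, a log2 ratio of -0.60 (-0.64 to -0.55). Cox7c, a subunit of complex IV, read 309.6, 343 and 359 CPM against 488, 501 and 538 CPM, a log2 ratio of -0.56 (-0.60 to -0.53). Atp5k read 109, 115 and 127 CPM against 151, 165 and 173 CPM, a log2 ratio of -0.50. In each of these genes the highest B6.SLE123 population lay below the lowest control population. Atp5mpl, a small protein of the Fo part, had a log2 ratio of -0.36 and Ndufs5 one of -0.36, also without overlap. The Ndufb1-ps row had one of -0.35, with overlapping values (184 to 256 against 255 to 306 CPM).

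The same comparison was set side by side in 6 classes, namely other, marginal zone and germinal centre B cell-like, NK cell-like, neutrophil-like and monocyte-like cells. Ndufa3, Ndufb1-ps and Cox7c were lower in all 6, 3 of 69 members tested in each class, beside 0.955% of 1780 genes. The log2 ratios of Cox7c ran from -0.70 to -0.56, those of Ndufa3 from -0.96 to -0.39 and those of Ndufb1-ps from -0.60 to -0.37. Atp5k and Atp5mpl were lower in 5 classes and below 0 in the 6, and Atp5md was lower in 4. The shares of all genes for these counts are not given here, and the 6 classes come from the same pair of libraries. The Ang II library gave other values for these genes. Atp5k was above 0 in all 6 classes (0.21 to 0.80), as were Ndufb1-ps (0.20 to 0.61) and Ndufa3 (0.05 to 0.27), and Cox7c ran from -0.04 to 0.30. At the threshold used for B6.SLE123, 0 of 66 members tested in each class were higher in all 6, beside 1.29% of 927 genes. The share of all genes above 0 in all 6 classes is not given here. The comparisons share the control library. In the vM21 annotation Ndufa3, Ndufb1-ps and Cox7c each overlap 1 other gene and Atp5k and Atp5mpl none. Of the 88 members 40 overlap another gene, and the effect of overlap on their counts was not tested.

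**Figure D4:**
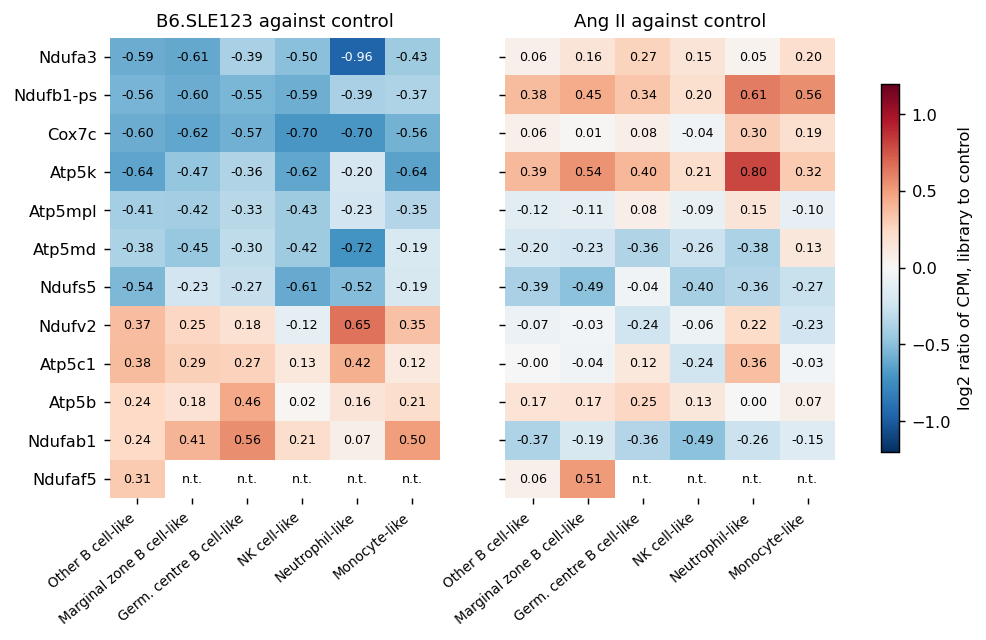
Log2 ratio of CPM to control (colour and printed value) of 12 members (rows) in 6 classes (columns), for the B6.SLE123 library (left) and the Ang II library (right); n.t. marks a member with under 100 UMIs over both libraries. The rows of Ndufa3, Ndufb1-ps, Cox7c, Atp5k, Atp5mpl, Atp5md and Ndufs5 are below 0 in all 6 columns on the left, and Atp5k and Ndufb1-ps are above 0 in all 6 on the right.

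The genes lie at chr7:3617373-3620327 (Ndufa3, plus strand), chr13:86044816-86046904 (Cox7c, minus strand), chr5:108433244-108434448 (Atp5k, minus strand) and chr12:101968090-101977068 (Ndufb1-ps, minus strand) on GRCm38. The 150 bases before the RefSeq start of the first 3 are shown because these genes lay below control in all 6 classes of the B6.SLE123 library, from RefSeq on GRCm38.p6, 5′ to 3′ on the gene strand, at chr7:3617223-3617372, chr13:86046796-86046945 and chr5:108434400-108434549. Capitals mark matches to the letters searched in the windows above.
Ndufa3: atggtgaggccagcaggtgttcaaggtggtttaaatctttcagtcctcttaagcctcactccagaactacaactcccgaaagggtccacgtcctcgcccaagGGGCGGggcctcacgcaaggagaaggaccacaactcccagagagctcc
Cox7c: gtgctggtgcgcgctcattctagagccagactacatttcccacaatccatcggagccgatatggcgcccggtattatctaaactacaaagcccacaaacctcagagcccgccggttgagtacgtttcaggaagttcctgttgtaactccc
Atp5k: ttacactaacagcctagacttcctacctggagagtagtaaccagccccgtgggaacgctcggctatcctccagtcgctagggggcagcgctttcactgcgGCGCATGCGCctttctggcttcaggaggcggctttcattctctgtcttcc
Ndufa3 held the GC box 48 bases before its start. Atp5k held the NRF1 core on both strands, in overlapping letters that began 50 and 48 bases before the start. The printed bases of Cox7c held none of the letters searched, and no set of letters was common to the 3 genes. The RefSeq starts of Cox7c and Atp5k lie inside the vM21 genes, so part of their printed bases lies within the annotated gene.

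The wider pathway was compared in the same cells. The counts for B6.SLE123 below stand beside 16.6% of all genes higher and 19.3% lower in all B cell-like cells, and several lists were near or below these shares. For B6.SLE123 and all B cell-like cells, the 13 mitochondrially encoded subunits summed to 16072 CPM against 18945 CPM in control, a log2 ratio of -0.24, with 6 lower and 0 higher. The lower ones were mt-Nd3 (log2 ratio -0.84), mt-Nd4 (-0.47), mt-Nd1 (-0.43), mt-Co1 (-0.37), mt-Nd2 (-0.37) and mt-Atp6 (-0.35). In the other B cell-like cells the ratio of sums was -0.23. The glycolysis list summed to 3232 against 2073 CPM, a log2 ratio of 0.64, with 8 of 16 genes tested higher and 2 lower. Gapdh stood at 1383 against 725 CPM, and Tpi1, Pgam1 and Ldha had log2 ratios of 1.02, 0.97 and 0.79. The glucose transporter Slc2a3 had a ratio of -0.89 and Aldoc one of -0.36. In the other B cell-like cells the ratio of the glycolysis sums was 0.45. The tricarboxylic acid cycle list had 4 of 15 genes higher (Fh1 0.65, Idh3a 0.49, Suclg2 0.41, Mdh2 0.37) and 0 lower, and the mitochondrial ribosome list 19 of 78 higher and 0 lower. Of 15 regulators, 2 were higher and 1 lower. Myc stood at 69.4 against 36.5 CPM, Tfb1m, a mitochondrial transcription factor, had a ratio of 0.35, and Esrra, a nuclear receptor acting on respiratory genes, one of -0.48. Of the complex II, cytochrome c and assembly list, 2 of 28 were higher (Sdhb 0.39, Surf1 0.34) and 1 was lower (Lyrm7 -0.33). The cytosolic ribosome list had 8 of 83 higher and 10 lower.

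In the Ang II library the counts stand beside 12.4% of all genes higher and 6.35% lower in all B cell-like cells. The mitochondrially encoded subunits had a log2 ratio of sums of -0.14, with 1 of 13 lower (mt-Nd4, -0.33) and 1 higher (mt-Nd6, 0.43). The glycolysis list had a ratio of 0.36, with 7 of 16 higher and 0 lower. The higher genes were Hk2 (0.54), Gpi1 (0.48), Pkm (0.46), Aldoc (0.43), Aldoa (0.40), Eno1 (0.38) and Gapdh (0.35). The tricarboxylic acid cycle list had 2 of 15 higher (Suclg2 0.41, Idh3a 0.41) and 0 lower. The mitochondrial ribosome list had 10 of 78 lower and 1 higher, and the cytosolic ribosome list 9 of 83 lower and 7 higher. Of the complex II, cytochrome c and assembly list, 3 of 28 were lower, namely Cox14 (-0.39), the copper chaperone Cox17 (-0.38) and Atpif1, the inhibitor of ATP synthase (-0.37), and 1 was higher, Atpaf1, a factor in its assembly (0.36). Of the 15 regulators 3 were higher, Myc (0.64), Ppargc1a (0.47, on a level of 2.77 against 1.99 CPM) and the helicase Twnk (0.34), and 0 were lower.

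**Figure D5:**
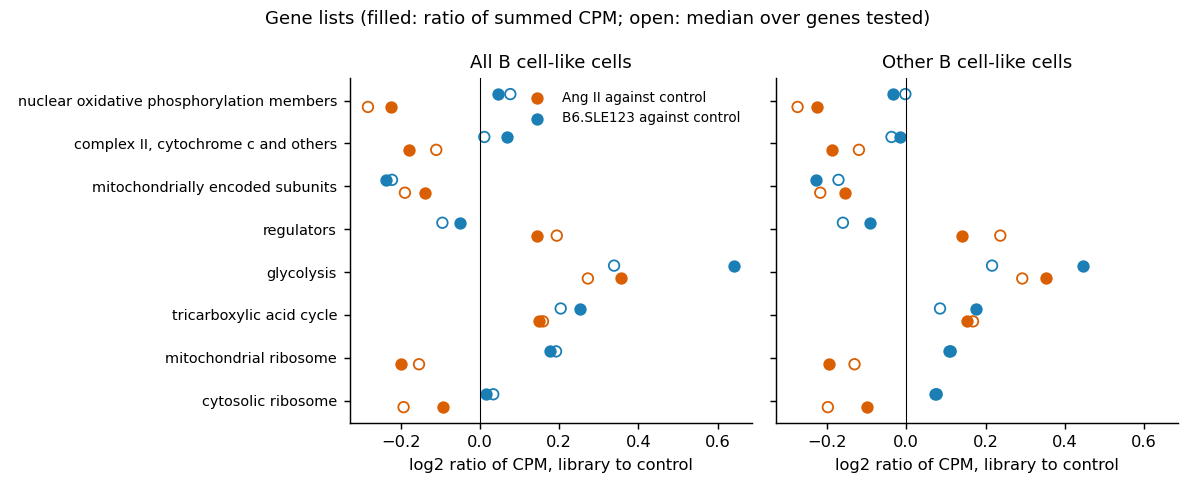
Log2 ratio of CPM to control (horizontal axis) of the members and of 7 other gene lists (vertical axis) in all B cell-like cells (left) and in the other B cell-like cells (right), for the Ang II (orange) and B6.SLE123 (blue) libraries; filled points are ratios of summed CPM and open points medians over the genes tested. Both libraries have glycolysis above 0 and the mitochondrially encoded subunits below 0 in both panels, and the members are below 0 in the Ang II library and near 0 in the B6.SLE123 library.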

How the data were processed

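Droplet 5′ libraries were aligned and counted by the authors, the file headers naming Cell Ranger 6.0.0 and the submitters' processing notes mm10. The deposited values are unnormalized counts of UMIs for each gene and hashtag antibody in a barcode. The counts were summed over cells with Python 3.11.15, NumPy 2.4.6, pandas 2.3.3 and SciPy 1.17.1. Barcodes over 200 and under 3500 genes and under 15% mitochondrial UMIs were kept, as the study's limits were read here, and those with several hashtags, called by an Otsu threshold per hashtag and library, were removed. No doublet caller was run. The plasma cell gate of 4 markers was set after the files were seen. CPM ratios carry exact conditional 95% intervals. As each group was 1 library, no test was run. TMM factors came from edgeR 4.0.16 in R 4.3.3, and the interval code was tested on simulated data. The members and gene lists were chosen with earlier results of these data known. Genes named were the 5 highest and 5 lowest ratios of each comparison in B cell-like cells, the 10 highest control levels, 9 core or catalytic members (1 is not reported here), tissue isoforms and the leading member of each other class, with genes outside the members named where they passed the threshold. Promoter windows were found for 71 of 88 members, and the windows of the rest were not analysed here.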

Additional observations from a re-analysis of the deposited data

Results flagged for a closer look

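Of 20 sets of hashtag populations checked for 1 value far from the others, 3 held one. Chance gives about 5% of independent sets. These sets share cells, since all B cell-like cells and their subsets were both checked, and each holds 2 conditions. The count can therefore not be read against that share. In neutrophil-like cells of the control library, population C0303 had the highest summed level of the members at 15252 CPM, while the other 5 ranged from 13390.1 to 13952 CPM. In other B cell-like cells of the Ang II library, C0302 had the lowest at 17226 CPM, while the other 5 ranged from 17629 to 17716 CPM. In monocyte-like cells of the Ang II library, C0301 had the highest at 24069 CPM among 4 populations with enough cells, while the other 3 ranged from 21557 to 21665 CPM. No label ties these hashtags to a condition.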

How the results depend on the processing

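The Ang II decrease of the summed level in B cell-like cells (log2 ratio -0.22) kept its direction under all alternatives run: -0.24 with cell limits read as UMIs, -0.27 without immunoglobulin, mitochondrial and ribosomal protein genes, -0.28 with TMM, -0.24 as a mean over cells, -0.24 for subunits only, -0.26 in cells of like depth (chosen after seeing the data), and -0.227 to -0.219 with 1 hashtag population left out. The 29 members past the threshold became 45 without those gene classes, 45 with TMM and 0 at 1.5-fold, and 27 to 32 with 1 population left out. For B6.SLE123 the ratio of 0.046 turned to -0.048 with limits read as UMIs, -0.032 without cycling and germinal centre cells, -0.017 as a mean over cells and -0.086 at like depth, and was 0.091 with TMM, 0.053 with 1 more marker required, and 0.032 to 0.062 with 1 population left out. Its 16 members past the threshold became 10 without cycling and germinal centre cells and 1 at 1.5-fold, and 14 to 17 with 1 population left out. Within the B6.SLE123 library, without the 3 gene classes the ratio to other B cell-like cells was 0.49 (germinal centre), 0.31 (cycling), 0.086 (marginal zone), 0.27 (plasma, from -0.38), 0.051 (NK), -1.14 (neutrophil), 0.0998 (monocyte), -0.00021 (conventional dendritic, from 0.23), 0.074 (plasmacytoid dendritic), 0.023 (red pulp macrophage) and 0.70 (erythroid). With 1 more marker required it was 0.66 (germinal centre), 0.021 (marginal zone), -0.54 (plasma), 0.30 (NK) and 0.26 (red pulp macrophage). As a mean over cells it was 0.63 (germinal centre), 0.00283 (marginal zone), -0.27 (plasma), 0.38 (NK), -0.69 (neutrophil), 0.35 (monocyte), 0.35 (plasmacytoid dendritic), 0.43 (red pulp macrophage) and 0.72 (erythroid). The causes were not tested. Of 117 alternatives, 68 kept direction and moved little, 40 moved and 9 turned sign. No paired analysis was possible because each group was 1 library. Classes with few cells, at low counts per member, limit what could be seen.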

Other observations

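Muscle and testis isoforms of complex IV outside the name rule were found in 2 rare spleen classes, and both were named after their values were seen. Cox6a2, the heart and muscle form of Cox6a1, stood at 2377, 2105 and 2109 CPM in plasmacytoid dendritic cell-like cells in control, Ang II and B6.SLE123 (25, 10 and 34 cells), and at 0.399, 0.254 and 0.686 CPM in B cell-like cells. In the same plasmacytoid dendritic cell-like cells Cox6a1 stood at 348, 259 and 393 CPM. Cox6b2, the testis form of Cox6b1, stood at 191, 110.3 and 183 CPM in erythroid-like cells (11, 25 and 41 cells), and at 1.05, 0.622 and 1.31 CPM in B cell-like cells. Cox6b1 stood at 494, 696 and 666 CPM in the same erythroid-like cells. In each library and pair of classes the levels were set by sums over cells, with no replicate.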
